A study of Homo sapiens with 2 samples.

Results

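ZNF genes encode zinc finger proteins, and those bright enough to be read were examined in the human glioblastoma cell line U251 given either the solvent DMSO or 5 µM Gamitrinib G-TPP for 6 h. G-TPP couples a geldanamycin-type Hsp90 inhibitor to triphenylphosphonium, a carrier that mitochondria take up, so that the Hsp90-type chaperones of that organelle are its intended target. Each condition had 1 Affymetrix array of RNA from a whole culture in high-glucose DMEM, and the labels name no genotype or further agent. A gene was a member if a probe set carried a single platform symbol made of ZNF and digits alone, and where a gene had several probe sets the brightest on average was used. The array measured 439 such genes of 18417 named genes. Of these, 282 reached an intensity of 239.2, the median of all probe sets, in the brighter of both arrays, as did 11091 genes in all, and only these are called kept below. The kept members were thus selected on the measured intensities of both arrays. Nothing here is a test, since 1 array per group gives no replicate check, no SE and no p-value, and words such as higher and lower apply to these arrays alone. What G-TPP did cannot be told apart from a difference between cultures or arrays.

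Most ZNF proteins hold rows of C2H2 fingers, in which cysteines and histidines grip a zinc ion and a short helix reads DNA bases. Many also carry a KRAB domain, which recruits the scaffold protein TRIM28 and with it histone methylation that silences transposable elements, imprinted regions and some genes. Others act as activators, bind RNA or have roles in ribosome assembly and the spindle. The KRAB members arose by tandem duplication, so many sit side by side on chromosome 19 and resemble each other closely, and a probe for one may also take up RNA of another.

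Promoter sequences are shown first because they display the sequence element that kept ZNF genes held most often among those searched. The 250 bases before and 50 after the start site were taken from RefSeq (GRCh38.p14), which held a window for 246 of the 282 kept genes and for 8944 of the 11091 kept genes of all kinds. The letters CCGGAAG, a site read by ETS factors, or CTTCCGG on the other strand were in 115 of the 246 windows (46.7%), in 19.5% of the windows of all kept genes and in 10.3% of the table's 35116 windows. For members and kept genes the first listed window of each gene was searched. The 35116 are all listed windows, those of genes not kept included. The element was chosen after the sequences had been seen. Of the 7 kept ZNF genes at least 2-fold higher with G-TPP (2.48%, beside 2.8% of all kept genes), 5 held it. So did 1 of the 2 at least 2-fold lower (0.709%, beside 0.55% of all kept genes). Stretches around it are given 5′ to 3′ on the strand of the gene, with the element in capitals.
ZNF841: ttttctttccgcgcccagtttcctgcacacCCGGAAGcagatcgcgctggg
ZNF568: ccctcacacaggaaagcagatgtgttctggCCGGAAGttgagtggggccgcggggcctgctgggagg
ZNF773: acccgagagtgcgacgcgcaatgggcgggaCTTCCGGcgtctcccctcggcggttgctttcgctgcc
ZNF805: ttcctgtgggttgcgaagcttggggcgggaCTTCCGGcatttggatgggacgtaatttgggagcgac
ZNF410: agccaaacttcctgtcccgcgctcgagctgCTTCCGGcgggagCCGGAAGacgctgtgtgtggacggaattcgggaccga
ZNF485: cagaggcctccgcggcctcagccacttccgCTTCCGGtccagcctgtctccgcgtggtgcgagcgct
The stretch of ZNF841 is chr19:52095741-52095791 on the minus strand and begins the element 4 bases after the start site, in the transcript. The others are on the plus strand and have the element before the start site: ZNF568 at chr19:36916264-36916330, ZNF773 at chr19:57499839-57499905, ZNF805 at chr19:57240565-57240631, ZNF410 at chr14:73886804-73886883 and ZNF485 at chr10:43606385-43606451. ZNF410 holds the element on both strands. A match describes letters, not a bound factor.

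The medians of genes with and without the element lay close together, whereas the shares above 0 differed. The 115 kept ZNF genes with it had a median log2 difference (G-TPP minus DMSO) of 0.11, and 74 of them were above 0 (64.3%, beside 44% of all kept genes). The 131 without it had a median of 0.05, with 71 above 0 (54.2%). Among kept genes other than members the medians were -0.01 with the element (1632 genes) and -0.05 without it (7066 genes). Above 0 were 49.2% of those with it and 44% of those without it. The stress elements searched on both strands were rarer. The ATF4 and C/EBP composite TGATGNAAT was in 3 member windows (1.22%, against 0.514% of windows of all kept genes and 0.991% of all windows), and the XBP1 letters TGACGTGG were in 1, that of ZNF678 (0.407%, against 0.973% and 0.729%). The heat shock core GAANNTTC was in 22 (8.94%, against 4.53% and 6.77%) and the cAMP response element TGACGTCA in 11 (4.47%, against 3.39% and 1.85%). The core ACTACAATT of ZNF143, itself a zinc finger activator, was in 6 (2.44%, against 0.626% and 0.336%). None of these 5 was found in the windows of the members past 2-fold that had one.

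The labelled cell type was checked first. VIM and CD44, a filament and an adhesion protein of mesenchymal glioblastoma cells, read 7146 and 8013 with DMSO and 6494 and 7614 with G-TPP. GFAP, the astrocyte filament, was just over the filter in the DMSO array alone (245.2, then 231.5), and S100B was under it in both. The neural stem cell factor SOX2 went from 4434 to 1629. The pan-leukocyte marker PTPRC (34.8 and 32.9) and the endothelial marker PECAM1 (74.6 and 70.7) were under the filter. Kept were the immune markers CD68 (583.7 and 515.5) and TYROBP (305.7 and 220.4). Also kept were the endothelial markers CDH5 (319.5 and 304.8) and CLDN5 (371.8 and 327.9) and the neuronal marker RBFOX3 (248.1 and 231.7). With DMSO each of these kept markers read above GFAP. TYROBP and RBFOX3 were over the filter in the DMSO array alone. Of 8 glial markers 7 were kept, of 5 immune markers 2, of 4 endothelial markers 2 and of 4 neuronal markers 1. The summed intensity of the glial list went from 23444 to 17726, that of the immune list from 1156 to 991.5, that of the endothelial list from 901.7 to 835.3 and that of the neuronal list from 686.3 to 634.6, and their part in the results was not tested. In RNA from whole cultures, a smaller share of cells with a transcript and less of it per cell cannot be told apart.

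As a group the kept ZNF genes lay slightly to the G-TPP side. Their median log2 difference was 0.07, with a middle 50% from -0.14 to 0.33, and 160 of 282 were above 0 (56.7%). Over all 11091 kept genes the median was -0.04, from -0.21 to 0.19 for the middle 50%, and 44% were above 0. With lowess centring on brightness 49.7% of all kept genes were above 0 and 62.8% of the ZNF genes. With a filter at the 75th percentile of probe sets the median of all kept genes turned to 0.03, with 52.8% above 0, and that of the 63 ZNF genes left was 0.23, with 76.2% above 0. The ZNF genes were dim, with median intensities of 406.7 (DMSO) and 431.4 (G-TPP), against 576.8 and 585.2 for all kept genes. Large differences were few in either direction. At least 2-fold higher were 7 ZNF genes (2.48%, beside 2.8% of all kept genes), and at least 2-fold lower were 2 (0.709%, beside 0.55%). At 1.5-fold the counts were 23 higher (8.16%, beside 7.37%) and 6 lower (2.13%, beside 3.23%). At 1.25-fold, a step chosen after the data were seen, 75 were higher (26.6%, beside 16.4%) and 34 lower (12.1%, beside 13.4%). On the higher side the shares of ZNF genes and of all kept genes were near each other at 2-fold and 1.5-fold and apart at 1.25-fold. The SD across kept ZNF genes was 0.37, against 0.43 over all kept genes and 0.19 over 341 genes for olfactory receptors, which few tissues besides the nose transcribe. The receptor genes were taken with no filter and had median intensities of 68.5 (DMSO) and 64.6 (G-TPP), so their SD is not one of like brightness.

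**Figure D1:**
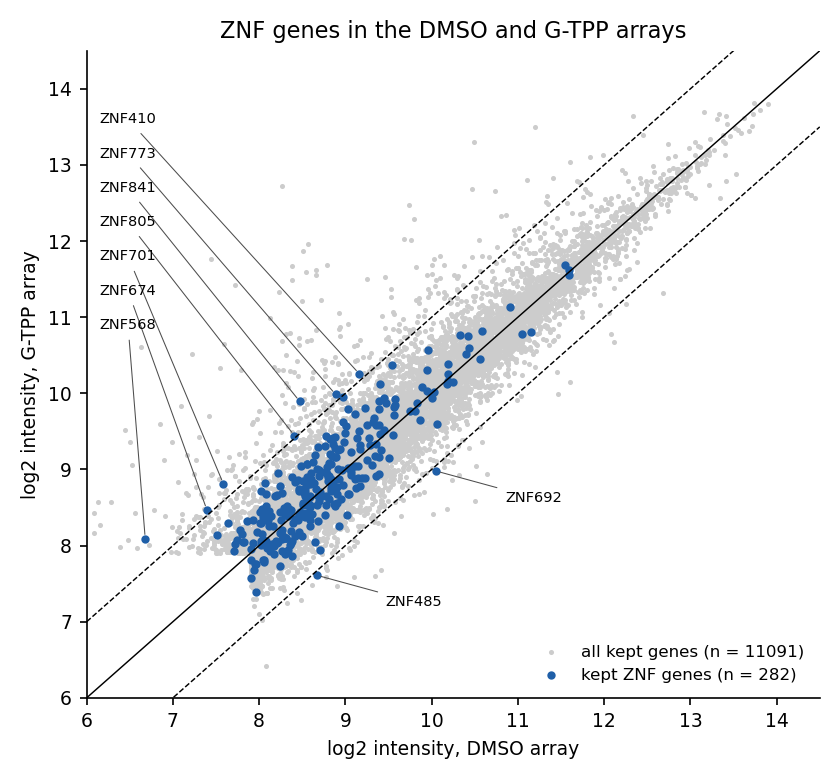
Log2 intensity in the G-TPP array (y axis) against that in the DMSO array (x axis) for 11091 kept genes (grey) and the 282 kept ZNF genes (blue). The solid line marks equal values and the dashed lines mark 2-fold, and the 9 named ZNF genes lie on or beyond the dashed lines while most others lie near the solid line.

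The highest difference belonged to ZNF841 (probe set 8038949), a finger protein of chromosome 19 whose promoter is the first shown above. It went from 354.5 to 951.9 and was 2.69-fold higher (log2 difference 1.42). ZNF568, a KRAB protein whose mouse counterpart silences a placental transcript of the growth factor gene Igf2, read 102.5 with DMSO and 272.9 with G-TPP. Its DMSO value did not reach 172.6, a level that 95% of olfactory receptor genes stay below, so its fold is a bound of at least 1.58-fold higher, below 2-fold. ZNF674, a KRAB gene of the X chromosome, read 168.1 and 354.8, and the same rule gave at least 2.06-fold higher. ZNF701 (191.9 and 450.1) was under the brightness filter with DMSO, as were ZNF568 and ZNF674, and was 2.35-fold higher. These 3 passed the filter through the G-TPP array alone.

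The other 4 of the 7 were past the filter in both arrays. ZNF773 went from 473.1 to 1014 and ZNF805 from 340.0 to 696.2, a log2 difference of 1.10 and 1.03. ZNF410 went from 571.8 to 1224 (2.14-fold higher). ZNF410 is an activator known for its narrow choice of targets, chiefly CHD4, the ATPase of the NuRD chromatin complex. CHD4 itself read 2566 with DMSO and 2018 with G-TPP, a log2 difference of -0.35. Next below 2-fold came ZNF486, at 501.4 and 991.8 (0.98), then ZNF791 (0.83), ZNF621 (0.77), ZNF419 (0.75) and ZNF417 (0.73). ZNF217, a corepressor-binding factor amplified in several carcinomas, went from 676.1 to 1117 (0.72). ZNF654 (0.70) and ZNF140 (0.66) complete the 15 highest. Of these 15 genes, 9 are on chromosome 19, which holds 137 of the 282 kept members (48.6%).

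On the lower side ZNF692, which binds the element through which the AMP-kinase activator AICAR represses a gluconeogenic promoter, went from 1061 to 504.7, 2.10-fold lower. ZNF485 went from 406.9 to 195.3, 2.08-fold lower, and its G-TPP value was under the brightness filter. The other 8 of the 10 lowest were ZNF584 (-0.76), ZNF850 (-0.67), ZNF84 (-0.62), ZNF57 (-0.60), ZNF691 (-0.57), ZNF174 (-0.52), ZNF488 (-0.51) and ZNF436 (-0.47). In ZNF691 the G-TPP value was under the olfactory receptor level, 173.6, which makes it at least 1.44-fold lower. ZNF488 is a partner of the oligodendrocyte factor OLIG2, and it read 303.1 with DMSO and 212.6 with G-TPP. ZNF436 was the brightest of the 10 with DMSO, at 1067 and then 771.4. On chromosome 19 are 3 of these 10, ZNF584, ZNF850 and ZNF57.

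**Figure D2:**
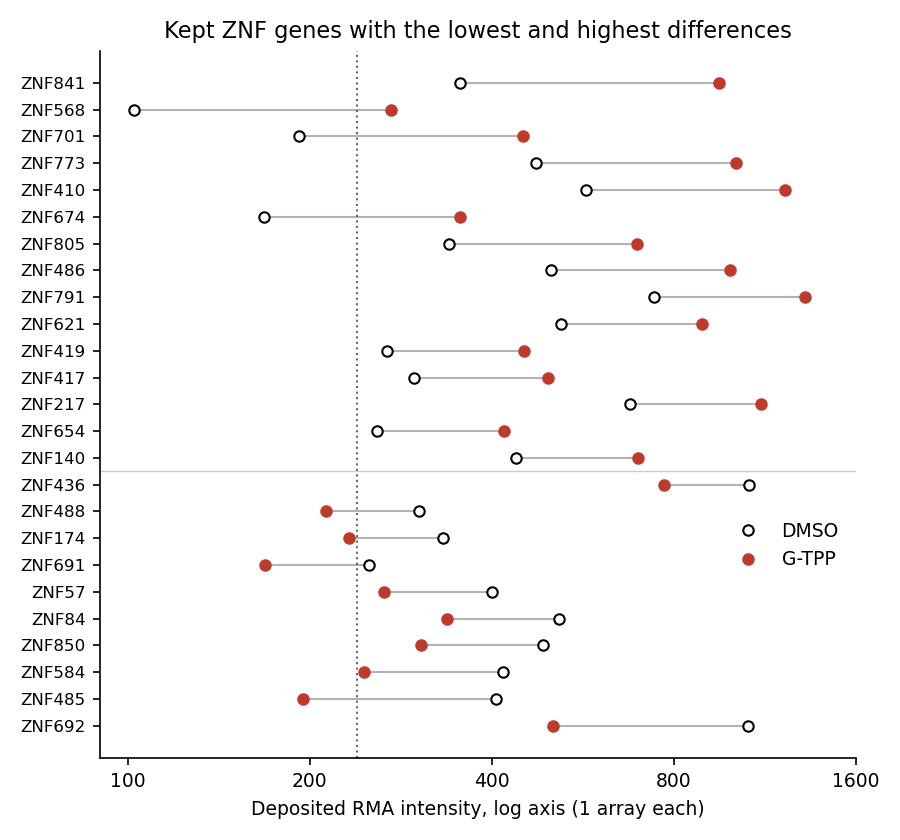
Deposited intensity on a log axis with DMSO (open) and G-TPP (red) for the 15 kept ZNF genes with the highest and the 10 with the lowest log2 difference, 1 array each. The dotted line is the filter at 239.2, and ZNF568, ZNF701 and ZNF674 start below it, while ZNF485, ZNF488, ZNF174 and ZNF691 end below it.

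None of the 8 members with the highest mean intensity reached 1.5-fold in either direction. ZNF146, a protein made almost wholly of fingers, read 2992 with DMSO and 3308 with G-TPP (log2 difference 0.14). ZNF207, a spindle and kinetochore protein also called BuGZ, read 3078 and 3145 (0.03), and ZNF257 read 3083 and 3005 (-0.04). The place of ZNF257 among the brightest rests on probe set 8180285. Its other probe set read 41.8 and 38.3, under the olfactory receptor levels of 172.6 and 173.6. ZNF462, a chromatin-associated protein of neural development, read 1916 and 2249 (0.23), and ZNF644, a partner of the histone methyltransferases EHMT1 and EHMT2, read 1535 and 1800 (0.23). ZNF121 (2284 and 1794) and ZNF480 (2111 and 1751) were lower with G-TPP, with log2 differences of -0.35 and -0.27. ZNF148, a factor of GC-rich promoters, went the other way, from 1372 to 1722 (0.33).

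The gap to genes of like brightness varied with intensity. Between 512 and 724.1 in the geometric mean of both arrays, 52 ZNF genes had a median of 0.25, against -0.01 over all kept genes in that range. Between 724.1 and 1024 the values were 0.26 for 23 ZNF genes and 0.01. Under 256 they were 0.11 for 23 ZNF genes and -0.13, in a range where the filter decides which genes are seen. In the ranges that held the most members the gap was smaller: from 256 to 362.0 the values were -0.04 for 84 ZNF genes and -0.11, and from 362.0 to 512 they were 0.05 for 80 ZNF genes and -0.07. Over 1024 they were 0.09 for 20 ZNF genes and 0.02. In each of the 6 ranges the ZNF median was above that of all kept genes.

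**Figure D3:**
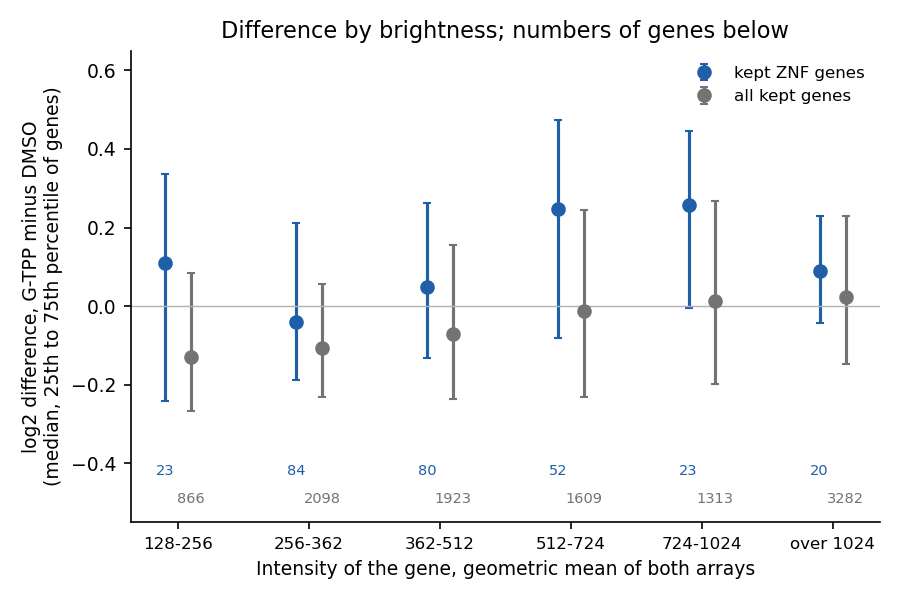
Median log2 difference (points) with the 25th to 75th percentile of genes (bars) in 6 ranges of intensity, for kept ZNF genes (blue) and all kept genes (grey), with the number of genes printed below each. The blue medians reach 0.25 and 0.26 between 512 and 1024, where the grey medians are -0.01 and 0.01.

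The filter shapes these counts. Just outside it were ZNF581 (brighter value 233.8), ZNF341 (236.3) and ZNF19 (238.5), with log2 differences of -0.32, -0.16 and -0.09. Just inside were ZNF420 (240.2), ZNF250 (240.6) and ZNF610 (244.0), with -0.10, -0.34 and 0.22. The 13 ZNF genes kept through the G-TPP array alone had to be higher there, and the 14 kept through the DMSO array alone had to be lower. In the 255 ZNF genes that reached the filter in both arrays the median was 0.07, against -0.03 over 10136 genes of all kinds. Of these ZNF genes 4 were at least 2-fold higher (1.57%, beside 2.28% of the 10136) and 1 lower (0.392%, beside 0.424%). Of the 157 ZNF genes under the filter, 103 were also under the olfactory receptor level in both arrays. The 157 had median intensities of 123.7 (DMSO) and 131.7 (G-TPP), and 75 of them were above 0 (47.8%). One of them was past 2-fold: ZNF10, also called KOX1, the source of the KRAB domain used in CRISPR interference, read 111.8 and 231.4, at least 1.34-fold higher by the bound.

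Members were next set beside other genes of their chromosome for chromosomes 19, 16, 7 and 1, which hold the most, a comparison chosen after the data were seen. The 137 kept ZNF genes of chromosome 19, of 221 measured there, had a median of 0.11, and 85 were above 0 (62.0%). The 705 other kept genes of that chromosome, zinc finger families left out, had a median of -0.14, and 159 were above 0 (22.6%). At 1.25-fold 42 ZNF genes of chromosome 19 were higher (30.7%) and 12 lower (8.76%). Of the other 705 genes 32 were higher (4.54%) and 145 lower (20.6%). Over all kept genes the shares were 16.4% higher and 13.4% lower. The medians had the same signs under lowess centring on brightness, 0.18 and -0.09, under quantile normalization, 0.13 and -0.13, and with no brightness filter, 0.06 and -0.12. All 5 of the 2-fold members on chromosome 19 (ZNF841, ZNF568, ZNF701, ZNF773 and ZNF805) were higher with G-TPP (3.65% of the 137). Of the other 705 genes 6 were at least 2-fold higher (0.851%) and 1 lower (0.142%). Over all kept genes 310 were higher (2.8%) and 61 lower (0.55%), so most 2-fold differences were on the higher side there too. ZNF568 and ZNF701 passed the filter through the G-TPP array alone, and the bound for ZNF568 is below 2-fold. The 145 members on other chromosomes had a median of 0.05 (0.00 with no filter), with 75 above 0 (51.7%), and 9962 other genes of those chromosomes had a median of -0.04.

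**Figure D4:**
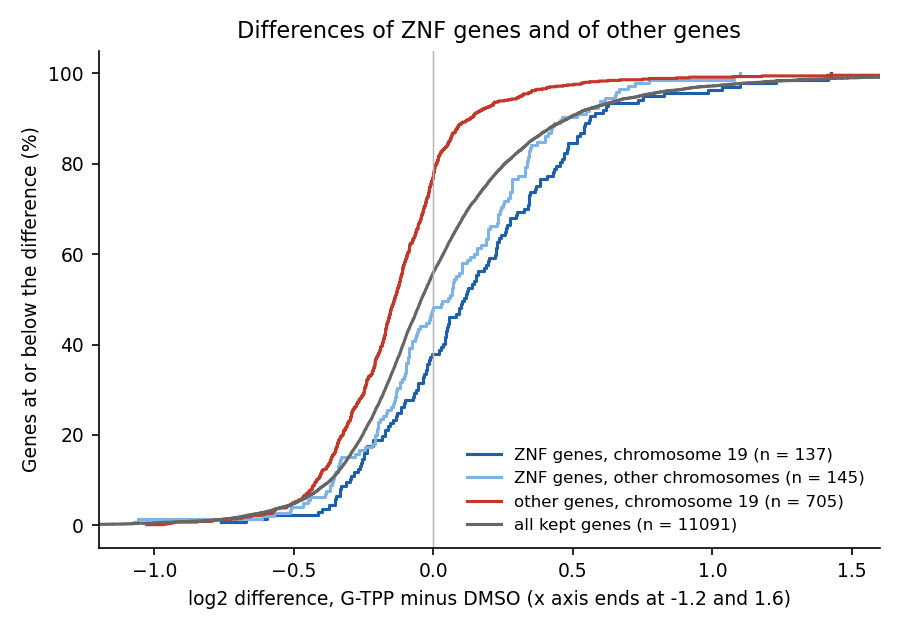
Share of genes (%) at or below each log2 difference for kept ZNF genes of chromosome 19 (dark blue, n = 137) and of other chromosomes (light blue, n = 145), other genes of chromosome 19 with zinc finger families left out (red, n = 705) and all kept genes (grey, n = 11091). Right of 0 lie 22.6% of the genes of the red curve and 62.0% of those of the dark blue one.

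On chromosome 7 the gap was near that on chromosome 19, whereas on chromosomes 16 and 1 the medians of members and other genes lay close together. On chromosome 16 the 24 kept ZNF genes had a median of -0.08, which was 0.00 under lowess centring and 0.28 in the 1 gene past a stricter filter at the 75th percentile of probe sets, and 514 other genes there had -0.12. On chromosome 7 the 23 members had a median of 0.17, with 15 above 0, beside -0.04 for 490 other genes. On chromosome 1 the 16 members had a median of -0.06, beside -0.05 for 1073 others.

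Base composition moved with these values. The promoter windows of kept ZNF genes had a median GC content of 62.3%, against 66% for other kept genes, and on chromosome 19 the medians were 61.2% for members and 66.7% for the others. Windows were split into 4 equal classes of GC content. In the class with the least GC, 86 ZNF genes had a median log2 difference of 0.15 and the others 0.00. In the next class 78 ZNF genes had 0.12 and the others -0.02. In the third class 54 ZNF genes had -0.04, as did the others, and in the richest class 28 ZNF genes had -0.02 against -0.07. The part of GC content in the result was not tested beyond these values.

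Members lie in runs, here taken as zinc finger genes in RefSeq order with at most 2 other genes between neighbours, and the runs of chromosome 19 differed among themselves. In the run from ZNF577 to ZNF331, 27 of 35 measured members were kept, 22 were above 0 and the median was 0.26 (0.18 with no filter, 0.36 under lowess centring). Among the 22, ZNF610, ZNF701 and ZNF816 were kept through the G-TPP array alone and so had to be above 0. Over the 24 members past the filter in both arrays the median was 0.30. The 5 below 0 were ZNF577, ZNF649, ZNF480, ZNF320 and ZNF331, named after their values were seen. This run holds ZNF841, which lies beside ZNF616 (0.09) and, on the other side, ZNF432, under the filter at 197.2 and 207.7, with ZNF614 (0.58) next. It also holds ZNF701, whose neighbours ZNF808 and ZNF83 had 0.34 and 0.47. In the run from ZIM3 to ZNF446, at the end of the chromosome, 30 of 38 members were kept, with a median of 0.16 (0.05 over all 38 with no filter), 19 above 0 and a range from -0.76 (ZNF584) to 1.10 (ZNF773). ZNF773 lies between ZNF419 (0.75) and ZNF549 (-0.01), and ZNF805 between ZNF264 (0.28) and ZNF460 (0.44).

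The run from ZNF101 to ZNF254, which holds the retroelement repressors ZNF91 and ZNF93, had 24 of 33 members kept, a median of 0.13 and 18 above 0. Among the 18, ZNF14, ZNF682, ZNF708 and ZNF429 were kept through the G-TPP array alone and so had to be above 0. Over the 20 members past the filter in both arrays the median was 0.10. The run from ZNF565 to ZNF573 spanned the widest range, from -0.67 (ZNF850) to 1.41 (ZNF568), around a median of 0.11 over 11 kept members, which was -0.11 over all 23 measured with no filter. ZNF568 lies between ZNF829 (0.47) and ZNF420 (-0.10). In the run from ZNF699 to ZNF846, 5 members were kept and 4 were above 0, with ZNF426 highest (0.61) and ZNF121 lowest (-0.35). In the run from ZNF283 to ZNF180, 4 of 17 members were kept, of which ZNF227 alone was above 0, and the median was -0.19 (0.14 over all 17 with no filter). In the run from ZNF579 to ZNF580 all 5 kept members were below 0: ZNF579 (-0.18), ZNF524 (-0.17), ZNF865 (-0.07), ZNF784 (-0.24) and ZNF580 (-0.26), named after their values were seen. Their median of -0.18 (-0.13 under lowess centring) lay near the -0.14 of the chromosome's other genes.

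**Figure D5:**
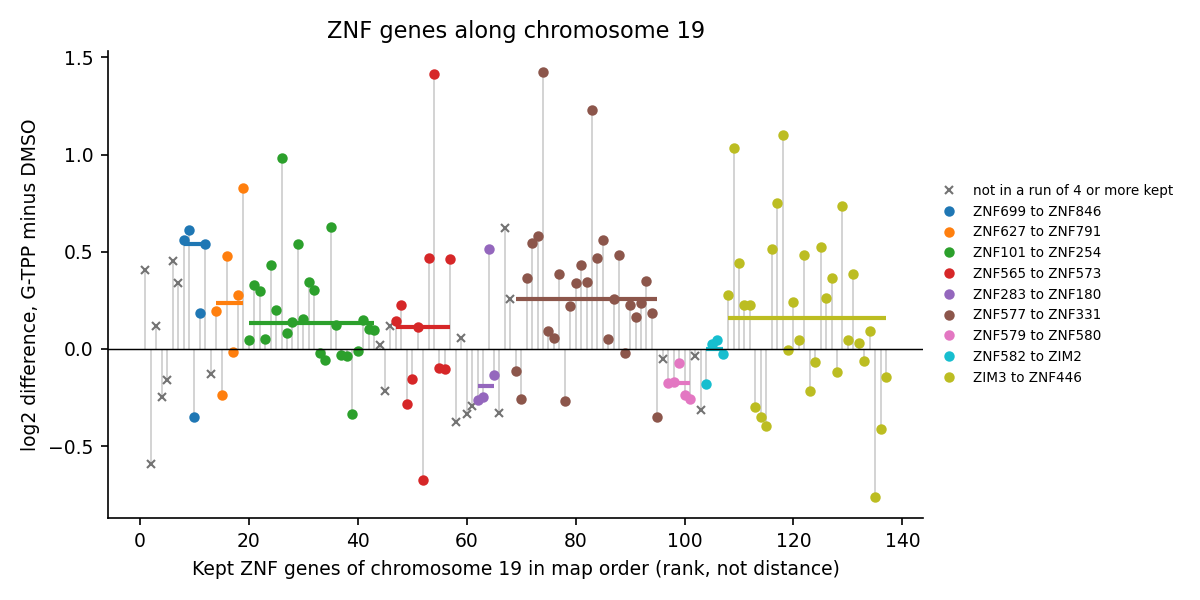
Log2 difference (y axis) of the 137 kept ZNF genes of chromosome 19 in map order by rank (x axis), coloured by run, with a bar at each run's median and crosses for genes outside runs of 4 or more kept members. The run from ZNF577 to ZNF331 (brown) has 22 of 27 genes above 0, and the run from ZNF579 to ZNF580 (pink) has none of 5.

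Outside chromosome 19 the run from ZNF722 to ZNF92 on chromosome 7 had 5 of 6 kept members above 0 (median 0.25), and that from ZNF605 to ZNF268 on chromosome 12 had 3 of 4, ZNF140 (0.66) among them, with ZNF84 at -0.62. The larger chromosome 7 run, from ZNF786 to ZNF862, had 4 of 9 above 0 and a median of -0.10, which was 0.17 over the 7 members past the filter in both arrays and also above 0 under 3 other settings. In the run from ZNF251 to ZNF16 on chromosome 8, 1 of 5 was above 0 (median -0.25, and 0.00 over the 3 past the filter in both arrays). Members in a run of 2 or more zinc finger genes numbered 201, with a median of 0.10 and 60.7% above 0. The 81 with no such neighbour had a median of -0.03, with 46.9% above 0. Over 89 pairs of members next to each other, which hold 132 genes and share both arrays, the differences correlated with r = 0.18. Of these pairs 58 had the same sign, and the median gap within a pair was 0.27. Pairs of members that are not neighbours were not set beside them, so a likeness of neighbours cannot be read from these values.

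By role, the members with known targets did not move as a block. In a list of KRAB repressors with described targets 13 of 15 genes were kept. Of these 9 were above 0 (69.2%, beside 44% of all kept genes and 56.7% of kept members). The median was 0.09 (-0.03 over the 2 past the stricter filter). ZNF263 went from 269.8 to 408.3 (0.60) and ZNF350, a partner of BRCA1 also called ZBRK1, from 301.5 to 439.2 (0.54). ZNF274, which brings the methyltransferase SETDB1 to zinc finger genes themselves, went from 453.8 to 592.0 (0.38), and ZNF268 had 0.28. ZNF649 was lower, at -0.26. The list also holds ZNF354A (0.29), whose symbol ends in a letter and which is not a member. ZNF354A read 198.7 with DMSO and was kept through the G-TPP array alone.

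Most genes for the proteins that KRAB members work through were below 0, as were most kept genes. Of 30 listed partner genes 28 were measured and 26 kept, 6 were above 0 (23.1%, beside 44% of all kept genes) and none was past 2-fold. The median was -0.19, beside -0.04 over all kept genes (-0.15 beside 0.00 under lowess centring). TRIM28, the scaffold that KRAB domains bind, read 2888 with DMSO and 2295 with G-TPP (-0.33), and SETDB1 read 581.4 and 477.2 (-0.28). MORC2, an ATPase that acts with the HUSH silencing complex, went from 769.3 to 506.9 (-0.60), and the histone methyltransferase genes EHMT2 and SUV39H2 had -0.47 and -0.39. UHRF1, which guides maintenance DNA methylation, had -0.36. The remodellers SMARCAD1, which binds TRIM28, and ATRX were higher, from 632.6 to 973.8 (0.62) and from 371.2 to 540.4 (0.54).

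Zinc finger proteins of RNA, the ribosome and the spindle were all kept, 11 of 11. Of these 3 were above 0 (27.3%, beside 44% of all kept genes and 56.7% of kept members), and the median was -0.06. ZNF622, a maturation factor of the large ribosomal subunit, went from 348.6 to 466.6 (0.42), and the RNA-binding ZNF106 from 762.8 to 968.1 (0.34). The nucleolar ZNF330 (728.3 to 568.8, -0.36), the double-stranded RNA binder ZNF346 (600.1 to 475.4, -0.34) and the ribosome assembly factor ZNF593 (450.3 to 391.5, -0.20) were lower, as was ZNF385A (-0.40), which is listed but not a member. Of 10 listed activators and promoter-binding factors 9 were kept, 3 were above 0 (33.3%) and the median was -0.09 (0.33 over the 5 past the stricter filter). The 3 were ZNF410 (1.10), ZNF24 (0.40) and ZNF148 (0.33). ZNF395 (-0.20), ZNF335 (-0.12) and ZNF384 (-0.11) were the lowest. Among chromatin, neural and tumour regulators 11 of 16 were kept, 7 were above 0 (63.6%) and the median was 0.10. Beside ZNF217, the SUMO ligase ZNF451 had 0.34 and ZNF503 had 0.24, whereas ZNF827, which recruits the NuRD complex to telomeres, had -0.45. The lowest was ZNF512B (-0.54), which is listed but not a member.

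Sister families of finger genes were set beside the members. SCAN-domain genes named ZSCAN or ZKSCAN, 17 kept, had a median of 0.21, which was 0.05 with no filter and -0.13 in the 1 gene past the stricter one. Of the 17 kept 11 were above 0 (64.7%, beside 44% of all kept genes and 56.7% of kept members). ZSCAN26 went from 257.6 to 545.1 (1.08) and ZKSCAN5 from 406.0 to 679.3 (0.74). The 32 kept ZBTB genes, whose BTB domain recruits other corepressors, had a median of -0.09 with 11 above 0 (34.4%), although ZBTB21 (0.91) and ZBTB38 (0.80) were high. The 8 kept ZFP genes had a median of -0.04, which was 0.03 under lowess centring, with ZFP37 highest (0.69). The 20 KLF and SP genes had a median of 0.11, which was -0.04 with no filter. Among them KLF4 read 169.6 and 334.3, the first under the olfactory receptor level, and KLF5 821.0 and 1558. ZNF genes with letters after the digits, 20 kept, had a median of 0.15.

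Probe sets set a limit on single names. Of the 439 members 14 had several probe sets, and in 3 of these the probe sets differed in sign. ZNF138 had 0.62 in the brighter probe set (551.8 and 845.9) and -0.12 in the dimmer (152.6 and 140.8). ZNF503 had 0.24 and, in the dimmer, -0.07 (146.3 and 139.8). ZNF208 had -0.03, -0.06 and, in the dimmest, 0.28 (25.2 and 30.7). In each of the 3 the probe set that differed in sign was under the olfactory receptor levels of 172.6 and 173.6. ZNF311 and ZNF718 had identical values in a pair of probe sets each. A further 33 probe sets listed a ZNF member among several symbols and named no member here. Of the 18 past the filter 11 were above 0. A pair of these that list ZNF701 with up to 9 other ZNF genes of its run had differences of 0.03 and 0.13, against 1.23 for the probe set of ZNF701 alone.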

How the data were processed

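The deposited values are linear-scale intensities, 1 for each probe set in each array. They came from RMA, run by the authors in Affymetrix Expression Console 1.1.2, per the submitters' processing notes. RMA makes the intensity distributions of arrays alike, so a change in total RNA is not visible. Which arrays entered it is not given in the sources used here. Array medians were 224.8 (DMSO) and 215.5 (G-TPP), and the number of arrays, 1 per group, limits the precision. The platform annotation named 19460 of 33297 probe sets with 1 symbol; 1754 had several and 12083 were not listed. All 439 members matched the RefSeq gene table (GRCh38.p14) by gene ID, which gave chromosome and gene order. Differences are log2 G-TPP minus log2 DMSO with no pseudocount. A dimmer value under the 95th percentile of olfactory receptors (172.6, 173.6) was replaced by it for a bound. Named genes were all members past 2-fold, the 15 highest, 10 lowest and 8 brightest, 3 on each side of the filter, up to 6 per role list, up to 2 per sister family, and neighbours of 2-fold members. CHD4, the neighbours' runs and the markers are additions. Members and lists were chosen with earlier results of these data known. The script was tested on simulated data. Tools were numpy 2.4.6, pandas 2.3.3 and matplotlib 3.10.9 under Python 3.11.15, with statsmodels 0.14.6 for lowess.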

Additional observations from a re-analysis of the deposited data

How the results depend on the processing

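No paired analysis was possible because each group has 1 array, and none could be left out. The median log2 difference of kept ZNF genes stayed above 0 in every setting run. It was 0.043 with no filter, 0.231 with a filter at the 75th percentile of probe sets, 0.077 with the filter on the mean of both arrays, 0.075 with it in both arrays and 0.075 with the mean over probe sets. It was 0.117 with the median of all kept genes set to 0, 0.138 with lowess centring, 0.099 with quantile normalization and 0.077 with letters after the digits allowed, a setting added after the data were seen. The count above 0 was 48 of 63 at the 75th percentile. The count at least 2-fold higher was 4 of 63 at the 75th percentile, where 4.36% of all kept genes were. It was 4 of 255 with the filter in both arrays (1.57%, beside 2.28% of all genes). Both filters leave out ZNF568, ZNF701 and ZNF674. Their DMSO values are under 239.2, and their brighter values do not reach the 75th percentile. The count at least 2-fold lower was 1 at the 75th percentile and 1 in both arrays, since ZNF485 is then left out, and 1 with lowess centring, where ZNF485 had -0.96. The 1.5-fold threshold gave 23 higher and 6 lower, and the 3-fold threshold 0 and 0. With dim values set to the olfactory receptor level, also added later, ZNF568 had 0.66. Symbols ending in digits alone, listed as an alternative, are the rule used. Protein features were not computed, as no protein table was used here. Signal near background pulls the folds of dim members towards 1.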
